A study of Homo sapiens with 6 samples.

Results

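The respiratory chain genes of both genomes were followed in HK-2 cells, an immortalised line from the human kidney proximal tubule. They were rows of the gene count table whose symbol names a subunit of complexes I to V (NDUF, SDH, UQCR, COX and ATP5 names of the nucleus, and the MT-ND, MT-CO, MT-CYB and MT-ATP names of the mitochondrial genome), without pseudogene names, and with at least 10 counts in at least 3 libraries. Of 62754 rows in the table, 103 had such a symbol and 96 passed the count minimum: 83 genes of the nucleus and 13 of the mitochondrial genome. The 7 that did not pass were UQCRFS1-DT, COX7A1, COX8C, ATP5MGL, COX8BP, COX7B2 and COX4I2, and COX7B2 and COX4I2 had 0 counts in every library. COX6A2 passed only through the control libraries, so it had to be lower in CP+siNAT10 to be counted that way.

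All cells had been exposed to Cisplatin, so both groups share that treatment, and the study's methods give 20 µM for 24 hours as the condition chosen for HK-2 experiments. The CP+siNC group received a negative control siRNA and the CP+siNAT10 group an siRNA against NAT10, an acetyltransferase that modifies RNA. The sequence of the siRNA was not given in the sources used here. There were 3 libraries a group, with 19321665, 21602988 and 19464027 counts in CP+siNC and 20793709, 21531774 and 25192736 in CP+siNAT10. The question was which genes change when NAT10 is lowered in Cisplatin-exposed tubular cells. Nothing states whether the libraries came from separate cultures, so the p-values measure only the spread between these samples, which may be technical.

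NAT10 itself stood at 75.8, 71.4 and 73.2 CPM (counts scaled to a common library size, with TMM factors) in the control libraries and at 41.3, 40.5 and 42.4 CPM in CP+siNAT10. Each library of the CP+siNAT10 group lay below each control. The mean was 56.4% of control, a log2 fold change of -0.82 (SE 0.0426; edgeR quasi-likelihood adjusted p = 2.79e-15), so the target was lowered and not lost.

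The label of the cells was read against marker genes. Their CPM here are scaled by total counts only, without TMM factors, while the calls come from the fit with TMM scaling. PAX8, a factor of the kidney lineage, rose from a mean of 31.0 CPM to 47.8 CPM, and the summed level of the 3 lineage genes was 40.3, 44.8 and 42.4 CPM in CP+siNC and 51.8, 62.4 and 57.9 CPM in CP+siNAT10, without overlap. Epithelial keratins were abundant. KRT8 stood at 1433 CPM in CP+siNC and 1466 CPM in CP+siNAT10 and was not called (log2 fold change -0.0046 with TMM scaling). KRT18 fell from 341 to 272 CPM and KRT7 from 98.5 to 91.2 CPM, EPCAM rose from 15.3 to 19.5 CPM, and CDH1 had at most 2 counts in a library. Among genes of the differentiated proximal tubule, GGT1 fell from 32.7 to 27.7 CPM and SLC5A2 rose from 9.16 to 11.7 CPM, while LRP2, CUBN, SLC22A6, SLC22A8 and HNF4A were at or near 0. Of 11 markers of other cells, COL1A1 alone reached 1 CPM, with sums of 11.7, 13.5 and 11.7 CPM against 14.8, 18.0 and 14.6 CPM. COL1A1 rose from 10.3 to 13.8 CPM and PTPRC, of blood cells, from 0.412 to 0.834 CPM, and both were called. Others at low levels went both ways and were not called or not tested. ACTA2 went from 0.822 to 0.531 CPM, PDGFRB from 0.347 to 0.135 CPM and VWF from 0.0960 to 0.0160 CPM. PECAM1 went from 0.127 to 0.219 CPM and NPHS1 from 0.0979 to 0.199 CPM. In bulk RNA, fewer cells of a type and less RNA per cell cannot be told apart, and the part of these marker shifts in the results was not tested.

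The chain passes electrons from NADH and succinate through complexes I to IV to oxygen and pumps protons across the inner mitochondrial membrane, and complex V uses the proton gradient to make ATP. Most subunits are encoded in the nucleus and imported as proteins, but core subunits of complexes I, III, IV and V are encoded by the mitochondrial genome, whose genes are transcribed as long RNAs from both strands and cut apart at the tRNAs. The proximal tubule relies on this chain for reabsorption, and complex II has no mitochondrial gene.

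Most of the called chain genes were lower after NAT10 siRNA, by modest amounts, and the genes of the mitochondrial genome did not move together. Of all 19874 genes tested, 44.1% were called, at an adjusted p under 0.05 (Benjamini-Hochberg, from the quasi-likelihood test of edgeR), with 21.8% higher and 22.3% lower. Among the 83 nuclear members 12 were higher and 39 lower, 14.5% and 47.0%. Among the 13 mitochondrial members 1 was higher and 8 were lower. The median log2 fold change was -0.12 for nuclear members and -0.15 for mitochondrial members, against 0.01 for all tested genes. A fold limit removed nearly all of this: 1 member passed an adjusted p under 0.05 together with a log2 fold change over 1 in size, beside 2.33% of all genes. The groups did not overlap for 36 of the 39 nuclear members that fell, for 10 of the 12 that rose and for 6 of the 8 mitochondrial members that fell. Among all called genes, the groups did not overlap for 94.9% of those that fell and 95.1% of those that rose, so these counts are not particular to the chain. The count of nuclear members that rose was 6 when replicate 1 of CP+siNC was left out and 7 when its replicate 3 was, 7 when replicate 2 of CP+siNAT10 was left out and 6 when its replicate 3 was. DESeq2 called 6 of the nuclear members higher and 29 lower, beside 3221 higher and 3431 lower of all 19874 genes. A test against a 1.2-fold change called 2 nuclear members higher and 5 lower, and 0 mitochondrial members higher and 3 lower. That test called 1319 higher and 1591 lower of all 19874 genes, and no difference of the members from all genes was tested. The member past both limits was COX6A2, and the count was 0 when any 1 library was left out, with no filter on low counts, with a minimum of 1 CPM, with DESeq2 and against a 1.2-fold change.

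**Figure D1:**
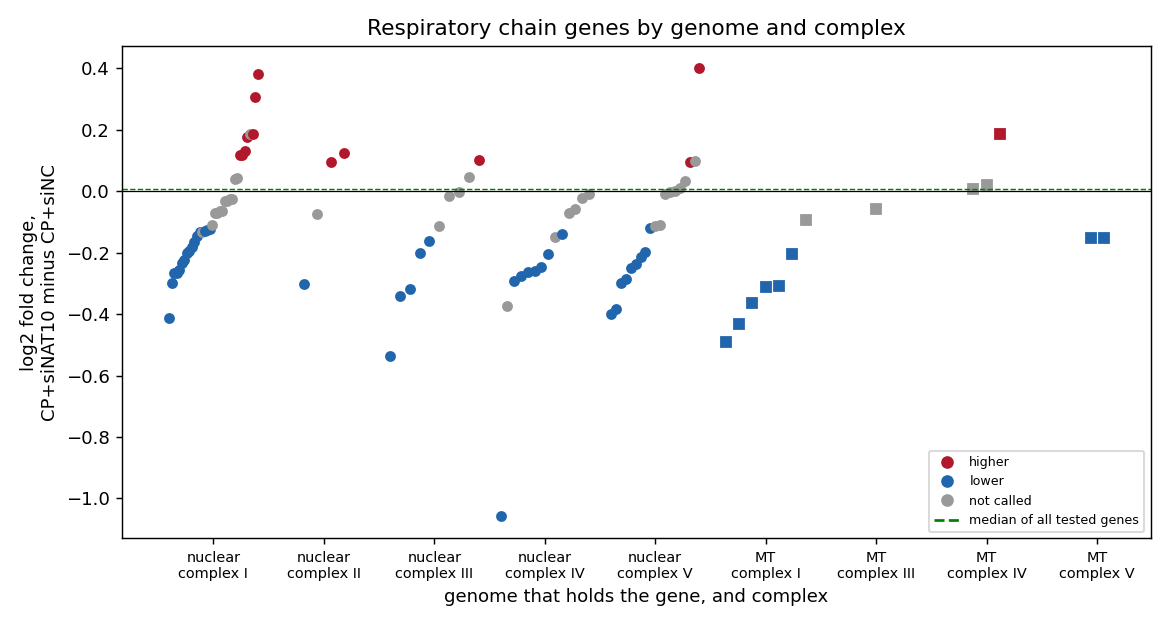
Log2 fold change of each of the 96 members (vertical axis, CP+siNAT10 minus CP+siNC), grouped by genome and complex, with circles for nuclear and squares for mitochondrial (MT) genes, coloured by call; the dashed line is the median of all tested genes. Nuclear complex IV holds no member above 0 (2 do with library size only and 1 with the trend on gene length taken out), while in MT complex IV no member lies below 0.

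The 13 mRNAs of the mitochondrial genome made up 6.76%, 6.70% and 7.01% of all counts in CP+siNC and 6.39%, 6.27% and 6.70% in CP+siNAT10. Those shares overlap at their edge. In TMM-scaled CPM the sums were 69416, 67569 and 70869.9 against 63131, 61753 and 66548, so the mean was 92.1% of control without overlap. Nuclear members took 0.759%, 0.758% and 0.785% of counts in the controls and 0.737%, 0.702% and 0.698% in CP+siNAT10. Per length, every mitochondrial mRNA was above every nuclear member and far above the nuclear medians. MT-CO3 had the highest mean RPKM (CPM divided by gene length in kilobases) at 17586 and MT-CYB the lowest at 2338. The nuclear complexes had median RPKM between 11.5 in complex I and 30.6 in complex III. NDUFS5, at 1534 RPKM, was the most abundant nuclear member and UQCRH followed at 254 RPKM.

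Complex I takes electrons from NADH, and 7 of its membrane subunits are mitochondrial genes. Of these, 6 were lower, and the summed CPM was 30310.3, 28028 and 31349 in CP+siNC against 24054, 22924 and 24647 in CP+siNAT10. Every CP+siNAT10 library lay below every control, and the mean was 79.9% of control.

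MT-ND6 (ENSG00000198695, chrMT:14149-14673 in GRCh38), a membrane subunit and the only protein gene on the minus strand of the mitochondrial genome, stood at 4632, 4149.8 and 4681 CPM in CP+siNC and at 3294, 3139 and 3152 CPM in CP+siNAT10. The control values were all higher, with no overlap. Its log2 fold change was -0.49 (SE 0.0402; edgeR quasi-likelihood adjusted p = 4.87e-11). Libraries were made with a stranded kit, but whether counting used the strand was not given in the sources used here, so reads of the opposite strand cannot be told apart from its own. MT-ND3 (ENSG00000198840), which helps couple electron transfer to proton pumping, went from 1207, 1122 and 1292 CPM to 918, 854 and 914 CPM. The fall was larger than the spread in either group (log2 fold change -0.43, edgeR quasi-likelihood adjusted p = 9.24e-10). MT-ND5 (ENSG00000198786), a proton-pumping subunit, went from 9879, 8983 and 9637 CPM to 7433, 7156 and 7575 CPM, again without overlap, a log2 fold change of -0.36 (edgeR quasi-likelihood adjusted p = 8.44e-09). MT-ND2 and MT-ND4, both pumping subunits, fell by 0.31 on the log2 scale, and MT-ND4L, whose mRNA also carries MT-ND4, fell by 0.20. None of MT-ND2, MT-ND4 and MT-ND4L passed the test against a 1.2-fold change. MT-ND1 did not pass: it had 3351, 3241 and 3654 CPM in the controls and 3212, 3037 and 3345 CPM in CP+siNAT10, which overlap, with an edgeR quasi-likelihood adjusted p of 0.064. It was called lower when replicate 1 of CP+siNC (adjusted p = 0.0427), replicate 2 of CP+siNC (0.0147) or replicate 3 of CP+siNAT10 (0.0229) was left out of that edgeR quasi-likelihood test. MT-ND1 was also called lower with the replicate number as a block (-0.09, adjusted p = 0.0452) and with no filter on low counts (-0.08, adjusted p = 0.0259) in edgeR.

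Complex IV reduces oxygen, and its catalytic core is MT-CO1, MT-CO2 and MT-CO3. Of these 1 was called, in the higher direction, and no difference from complex I was tested. MT-CO1 (ENSG00000198804), which holds the heme and copper site where oxygen is reduced, was 10107, 10304 and 10282 CPM in CP+siNC and 11269.8, 11334 and 12338 CPM in CP+siNAT10. All of its CP+siNAT10 values were above the controls, a log2 fold change of 0.19 (SE 0.0384; edgeR quasi-likelihood adjusted p = 0.000196), although it did not pass the test against a 1.2-fold change. MT-CO2, which accepts electrons from cytochrome c, had 2773, 2901 and 2876 CPM against 2699, 2804 and 3094 CPM. MT-CO3 had 13713, 13889.7 and 13448 CPM against 13884, 13707 and 14079 CPM. Both overlapped between groups, with log2 fold changes of 0.01 and 0.02 and edgeR quasi-likelihood adjusted p of 0.896 and 0.662. The value of MT-CO2 was -0.0136 when replicate 1 of CP+siNC was left out and -0.0497 when replicate 3 of CP+siNAT10 was. The 3 mRNAs summed to 26593, 27095 and 26606 CPM in the controls and to 27853, 27846 and 29512 CPM in CP+siNAT10, a mean of 106% of control. The sums did not overlap.

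Read within a library, where scaling cancels, the counts of MT-ND5 were 0.978, 0.872 and 0.937 of those of MT-CO1 in the controls and 0.660, 0.631 and 0.614 in CP+siNAT10. MT-ND6 to MT-CO1 went from 0.458, 0.403 and 0.455 to 0.292, 0.277 and 0.255. These ratios, chosen after the values were seen, did not overlap between groups, nor did those of MT-ND3 and MT-ND1 to MT-CO1. MT-CO3 to MT-CO1 went from 1.36, 1.35 and 1.31 to 1.23, 1.21 and 1.14, also without overlap although MT-CO3 itself was not called. MT-RNR2 to MT-CO1 overlapped, at 1.41, 1.32 and 1.30 against 1.43, 1.39 and 1.46. MT-CYB, the mitochondrial subunit of complex III, was not called (2751, 2721 and 2691 CPM against 2525, 2529.8 and 2791 CPM), but was when replicate 3 of CP+siNAT10 was left out (-0.11, edgeR quasi-likelihood adjusted p = 0.0286).

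MT-ATP8 and MT-ATP6, subunits of the membrane part of complex V, are read from 1 mRNA, and their coding sequences share bases. The shared stretch is shown because a read that covers it fits both rows. How such reads were counted was not given in the sources used here. It lies at chrMT:8527-8572 on the plus strand (GRCh38, 46 bases, read from the GENCODE 29 transcripts), and the capitals mark the start codon of MT-ATP6 at its left end and the stop codon of MT-ATP8 at its right end.
MT-ATP8 and MT-ATP6: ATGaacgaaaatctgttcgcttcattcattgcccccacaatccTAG
MT-ATP6 stood at 6181, 5928 and 6387 CPM in CP+siNC and at 5388, 5275 and 5986 CPM in CP+siNAT10, where 1 CP+siNAT10 library reached into the control range. Its log2 fold change was -0.15 (edgeR quasi-likelihood adjusted p = 0.00377). MT-ATP8 had 3581, 3797 and 3838 CPM against 3311, 3179 and 3612 CPM, with an overlap of the same kind and a log2 fold change of -0.15 (edgeR quasi-likelihood adjusted p = 0.00322). Neither call held without CP+siNAT10 replicate 2, where the adjusted p was 0.0589 for MT-ATP6 and 0.0586 for MT-ATP8, and MT-ATP6 was also not called by DESeq2 (adjusted p = 0.0547). Over all alternatives the adjusted p ran from 1.09e-05 to 1 for MT-ATP6 and from 1.95e-05 to 1 for MT-ATP8, where 1 belongs to the edgeR test against a 1.2-fold change.

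In the order of the genome, and with TMM scaling, the changes formed runs. From MT-RNR2, the large ribosomal RNA, through MT-CO1, MT-CO2 and MT-CO3, the rows were near or above 0 apart from MT-ND1, the stretch from MT-TI to MT-TA, and MT-ATP8 with MT-ATP6, whereas from MT-TG to MT-ND6 each row was lower. The ribosomal RNA genes are named after their values were seen: MT-RNR2 had a mean of 13779 CPM in CP+siNC and 16594 CPM in CP+siNAT10, a log2 fold change of 0.27, and the small ribosomal RNA MT-RNR1 was not called (-0.11). Among 22 tRNA genes 3 were higher and 13 lower. MT-TG, beside MT-ND3, had 184, 159 and 188 CPM in the controls and 104, 101.4 and 98.8 CPM in CP+siNAT10, a log2 fold change of -0.80 (edgeR quasi-likelihood adjusted p = 2e-14). MT-TR, at -0.67, lies between MT-ND3 and MT-ND4L, which fell, and MT-TS2, at -0.73, lies between the tRNA genes MT-TH and MT-TL2. A tRNA gene is so short that a read can run into its neighbours, so its counts and those of its neighbours cannot be told apart. Of 35 tested nuclear copies of mitochondrial genes 7 were higher and 5 lower, against 2 and 4 with DESeq2 and 8 and 3 with library size only or the trend on gene length taken out. Their median was 0.21, with 13 of 35 below 0, against -0.15 for the mitochondrial members. The smallest p were those of MTND2P28 at -0.27, MTND6P4 at -0.70 and MTCO1P40 at 0.80. How reads matching several places were counted was not given in the sources used here.

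**Figure D2:**
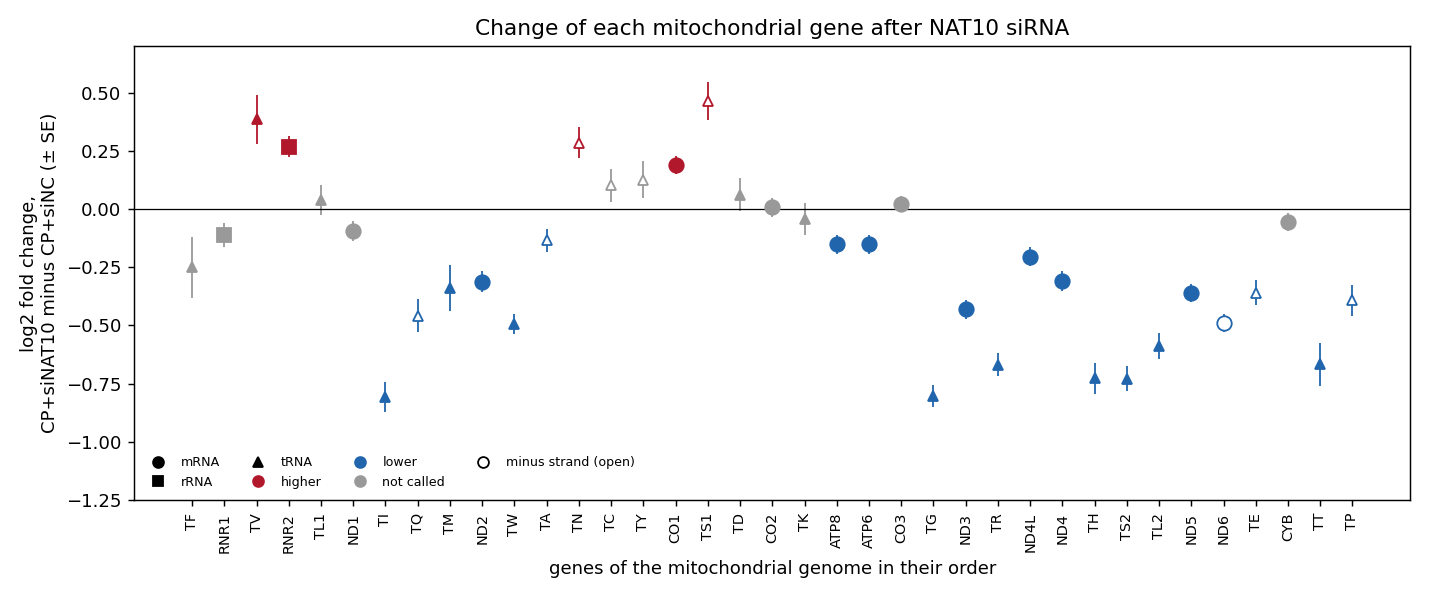
Log2 fold change with its standard error (vertical axis, CP+siNAT10 minus CP+siNC) of the 37 genes of the mitochondrial genome in their order (horizontal axis), with the shape showing the kind of gene, open symbols the minus strand and colour the call. MT-CO1 and MT-RNR2 lie above 0, and every row from MT-TG to MT-ND6 lies below.

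Nuclear complex I genes moved in both directions. Of 36 tested, 7 were higher and 16 lower, with a median log2 fold change of -0.09. With library size only 7 were higher and 10 lower, with the trend on gene length taken out 5 and 11, and with DESeq2 4 and 10. The letters of the symbols were used to group the genes after the values were seen, and no difference between these groups was tested. Of 11 NDUFB genes, which encode accessory subunits of the membrane arm, 9 were lower and 0 higher (0 also at an unadjusted p under 0.05 and with DESeq2), and the median was -0.19, while 6 were lower with library size only, with the length trend taken out and with DESeq2. Of 8 NDUFS genes, mostly of the arm that faces the matrix, 3 were higher and 2 lower, and 0 were lower with library size only and with DESeq2. Of 12 NDUFA genes 3 were higher and 4 lower, where 1 was higher with upper quartile scaling, with the length trend taken out and with DESeq2. Of 2 NDUFC genes 1 was higher and 0 lower, and of 3 NDUFV genes 0 were higher and 1 lower. NDUFB8 (ENSG00000166136, chr10:100523740-100530000), a membrane arm subunit, stood at 117, 111 and 121 CPM in the controls and at 94.2, 83.9 and 84.2 CPM in CP+siNAT10. The groups were well apart, with a log2 fold change of -0.41 (SE 0.0431; edgeR quasi-likelihood adjusted p = 5.88e-09). NDUFB6 and NDUFB2, from the same arm, were at -0.30 and -0.27.

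NDUFS4 (ENSG00000164258, chr5:53560633-53683338), an accessory subunit of the matrix arm, rose from 29.2, 28.4 and 27.6 CPM to 36.0, 37.7 and 37.1 CPM. Each CP+siNAT10 value was above each control, a log2 fold change of 0.38 (SE 0.0494; edgeR quasi-likelihood adjusted p = 2.58e-07). NDUFA10 rose by 0.19 and lost its call once a trend on gene length was taken out (0.07, adjusted p = 0.228 in that edgeR quasi-likelihood fit). NDUFS5, the most abundant nuclear member, had 891, 818 and 926 CPM against 842, 795 and 770.0 CPM. These overlap, and its call (-0.13) was lost in the edgeR quasi-likelihood test when replicate 3 of CP+siNC (adjusted p = 0.0724) or replicate 3 of CP+siNAT10 (0.0715) was left out. It was also lost with library size only (edgeR quasi-likelihood adjusted p = 0.0569), with the length trend taken out (0.0598) and with DESeq2 (adjusted p = 0.111). Over all alternatives the adjusted p ran from 0.000537 to 1 for NDUFS5 and from 0.000194 to 1 for NDUFA10, with 1 in the edgeR test against a 1.2-fold change.

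Complex II, which oxidises succinate and belongs also to the citric acid cycle, had all 4 genes tested. Its catalytic subunits were slightly higher: SDHA, which binds the flavin, had 182, 181 and 176 CPM against 194, 194 and 188 CPM, and SDHB, which carries iron-sulfur clusters, had 35.2, 34.8 and 35.5 CPM against 40.3, 36.6 and 37.9 CPM. Neither gene overlapped between groups, but the log2 fold changes were only 0.10 and 0.12. SDHA lost its call when replicate 3 of CP+siNC or replicate 1 or 2 of CP+siNAT10 was left out, with an edgeR quasi-likelihood adjusted p of 0.12, 0.0521 and 0.0682. With the trend on gene length taken out SDHA was at 0.04 and not called (edgeR quasi-likelihood adjusted p = 0.323). SDHB lost its call when any replicate but the second of CP+siNAT10 was left out, with an edgeR quasi-likelihood adjusted p between 0.0603 and 0.18, and also with no filter on low counts (0.0507) and with DESeq2 (0.164). Over all alternatives the adjusted p ran from 0.00127 to 1 for SDHA and from 0.00392 to 1 for SDHB, with 1 in the edgeR test against a 1.2-fold change. The membrane anchor SDHD went the other way, from 19.0, 15.8 and 18.4 CPM to 14.2, 14.2 and 14.6 CPM, a log2 fold change of -0.30 (edgeR quasi-likelihood adjusted p = 0.00117). SDHC, the second anchor, completes the complex and was not called, and it is named after its values were seen. DESeq2 and the fit with the trend on gene length taken out each called 1 of the 4 genes higher in place of 2.

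In complex III, which passes electrons from quinol to cytochrome c, 5 of 10 nuclear rows were lower and 1 higher. UQCR10 (ENSG00000184076, chr22:29767369-29770413), a small accessory subunit, fell from 33.5, 32.2 and 32.7 CPM to 24.7, 22.4 and 20.8 CPM. That was 69.1% of control and the largest fall of any nuclear member but COX6A2, a log2 fold change of -0.54 (SE 0.0579; edgeR quasi-likelihood adjusted p = 9.66e-09). UQCRB, which helps bind quinone, had 509, 476 and 522 CPM against 413, 397 and 399 CPM, and UQCRH, the hinge protein beside cytochrome c1, had 358, 371 and 365 CPM against 335, 294 and 321 CPM. Both fell without overlap, by 0.32 and 0.20 on the log2 scale. UQCRB-AS1, which lies on the opposite strand and overlaps UQCRB at its end alone, was at -0.34, and what share of its counts comes from that stretch was not tested. UQCRHL, named after its values were seen, is a near copy of UQCRH and was at -0.16, and reads that fit both cannot be told apart. Without these and ATP5MF-PTCD1, a row that overlaps ATP5MF, the nuclear count, chosen after seeing the data, was 12 higher and 37 lower of 80. UQCRC1, a core protein, was at 0.10 and lost its call when replicate 1 or 3 of CP+siNC or replicate 3 of CP+siNAT10 was left out (edgeR quasi-likelihood adjusted p of 0.0593, 0.155 and 0.103, and from 0.00252 to 1 over all alternatives), and with DESeq2 (adjusted p = 0.0783).

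Nuclear complex IV had no call in the higher direction. Of 14 tested genes 8 were lower and 0 higher (0 also at an unadjusted p under 0.05 and with DESeq2), the median was -0.23, and all 14 lay below 0, 12 with library size only and 13 with the trend on gene length taken out. The summed CPM was 1484, 1466 and 1499 in CP+siNC and 1353, 1290.2 and 1288 in CP+siNAT10, 88.4% of control, while the mitochondrial core of the same complex summed to 106% of control. COX6C, an accessory subunit, had 336, 324 and 334 CPM against 282, 269.5 and 270.5 CPM. COX4I1, a regulatory subunit and the most abundant after COX6C per length in this complex, had 474, 465 and 477 CPM against 444, 426 and 417 CPM. Both were below every control library, at -0.27 and -0.14 on the log2 scale. COX8A, the smallest subunit, was at -0.29 and lost its call when replicate 2 of CP+siNC (edgeR quasi-likelihood adjusted p = 0.0547) or replicate 2 of CP+siNAT10 (0.0954) was left out, and with DESeq2 (0.0679), within a range of 0.00967 to 0.523 over all alternatives.

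Several complex IV subunits exist as tissue isoforms. COX6A1, the widely expressed form, had 89.3, 91.4 and 90.8 CPM against 76.2, 74.3 and 75.7 CPM, a log2 fold change of -0.26 (edgeR quasi-likelihood adjusted p = 9.21e-07). COX6A2, the heart and muscle form, had 10, 12 and 11 counts in the controls and 3, 7 and 8 in CP+siNAT10, and it was the member past both limits (-1.06, edgeR quasi-likelihood adjusted p = 0.0348). At such counts the value rests on few reads, and the call was lost without any 1 of the 6 libraries, with an edgeR quasi-likelihood adjusted p between 0.0519 and 0.154, and between 0.0340 and 0.158 over all alternatives. COX6B1 and COX7A2 were not called (-0.01 and -0.07), nor were COX6B2, the testis form (-0.37), COX7B (-0.15) and COX7A2L (-0.02), a factor that joins complexes III and IV and is named after its likeness to COX7A2. COX7B was called lower when replicate 1 of CP+siNAT10 (-0.22) or its replicate 3 (-0.18) was left out, and COX7A2 when replicate 1 of CP+siNAT10 was (-0.11). COX7B was also called lower, at -0.16 and -0.15, with the replicate number as a block and with upper quartile scaling (edgeR quasi-likelihood adjusted p = 0.0435 and 0.0468). COX6B1 stood at 0.0244 when replicate 2 of CP+siNC was left out and at 0.0231 when replicate 3 of CP+siNAT10 was, where COX7A2L stood at 0.0192.

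**Figure D3:**
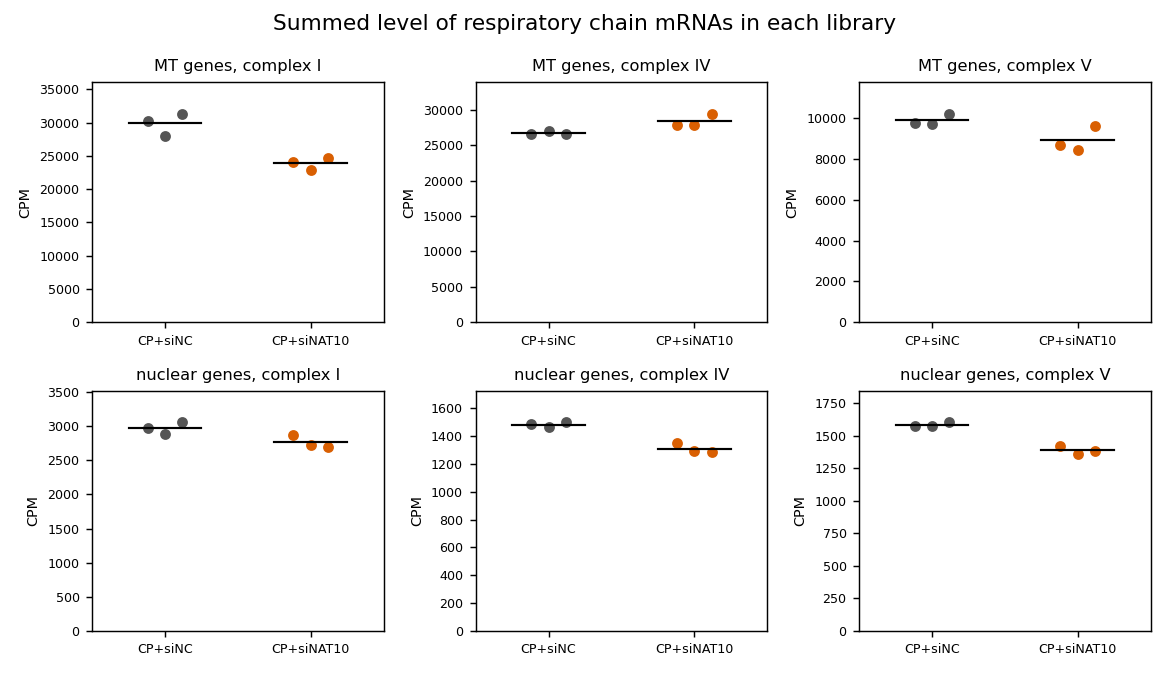
Summed CPM of each library (points, 3 a group) and group means (lines) for mitochondrial (MT) genes in the top row and nuclear genes below, by complex, with every vertical axis from 0; UQCRB-AS1, UQCRHL and ATP5MF-PTCD1, which overlap or copy a member, are left out of the nuclear sums. MT complex I fell to 79.9% of control and MT complex IV stood at 106%, while the nuclear sums of complexes IV and V stood at 88.4% and 87.7%.

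In complex V, 9 of 19 nuclear rows were lower and 2 higher, where 1 was higher with upper quartile scaling and with DESeq2. The catalytic head, chosen for naming after its values were seen, had 4 of its 5 genes lower: ATP5F1A and ATP5F1B, the alpha and beta subunits, were at -0.29 and -0.24, ATP5F1C and ATP5F1E at -0.25 and -0.20, and ATP5F1D was not called. ATP5PB, a subunit of the stalk that holds the head in place, fell from 65.0, 64.8 and 61.8 CPM to 52.1, 53.4 and 50.4 CPM, by 0.30 on the log2 scale. ATP5IF1, the inhibitor that keeps the enzyme from running backward and the most abundant nuclear row of the complex per length, had 370.2, 367 and 398 CPM in the controls and 309.8, 286 and 275 CPM in CP+siNAT10. No value overlapped, and its log2 fold change was -0.38 (SE 0.0395; edgeR quasi-likelihood adjusted p = 4.4e-09). ATP5PF, a stalk subunit, was at 0.10 and lost its call when replicate 1 or 2 of CP+siNC or replicate 2 or 3 of CP+siNAT10 was left out, with an edgeR quasi-likelihood adjusted p between 0.0657 and 0.194, and from 0.00167 to 1 over all alternatives. The call of ATP5PF was also lost with upper quartile scaling (edgeR quasi-likelihood adjusted p = 0.0533) and with DESeq2 (adjusted p = 0.121).

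The c subunit, whose ring turns as protons pass, is made from 3 genes that differ in their targeting sequence and give the same mature protein. ATP5MC2 (ENSG00000135390, chr12:53632726-53676398) had 24.6, 29.01 and 22.4 CPM in CP+siNC and 31.9, 33.3 and 35.3 CPM in CP+siNAT10. ATP5MC3 (ENSG00000154518, chr2:175176258-175181695) had 26.7, 28.8 and 25.1 CPM against 19.6, 19.0 and 22.4 CPM. Neither overlapped between groups: ATP5MC2 rose by 0.40 on the log2 scale (SE 0.0659; edgeR quasi-likelihood adjusted p = 1.14e-05) and ATP5MC3 was at -0.40 (SE 0.0652; edgeR quasi-likelihood adjusted p = 1.03e-05). ATP5MC1 was not called, with 10.7, 10.1 and 10.9 CPM against 11.7, 10.4 and 9.51 CPM, and its log2 fold change of -0.01 was 0.0067 when replicate 3 of CP+siNC was left out and 0.0666 when replicate 3 of CP+siNAT10 was. The count of ATP5MC2 divided by that of ATP5MC3 was 0.920, 1.01 and 0.890 in the controls and 1.63, 1.75 and 1.57 in CP+siNAT10, with no overlap. The sum of the 3 genes did overlap, at 62.0, 68.0 and 58.4 CPM against 63.2, 62.7 and 67.3 CPM.

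**Figure D4:**
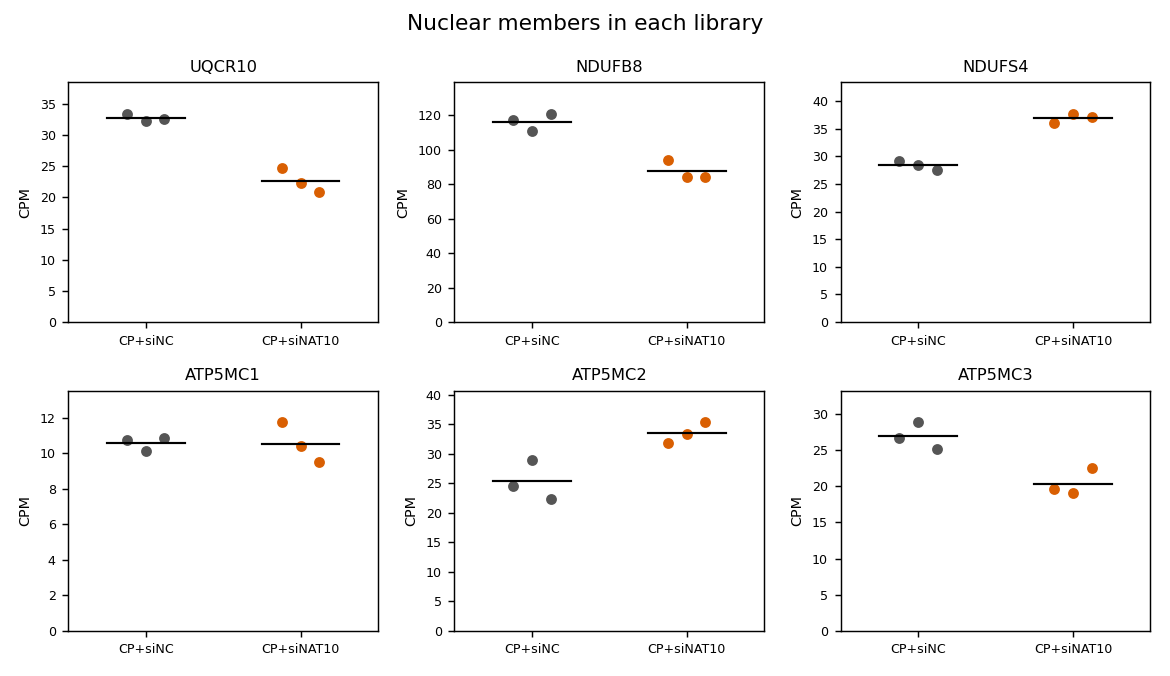
CPM of 6 nuclear members in each library (points, 3 a group) with group means (lines) and vertical axes from 0. UQCR10, NDUFB8 and ATP5MC3 fell and NDUFS4 and ATP5MC2 rose without overlap, while ATP5MC1 overlapped between groups.

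Promoters of nuclear members were searched for 3 short sequences known from genes of this chain, on either strand: GCATGCGC, like the site of NRF1, CCGGAAG, like the site of ETS factors, and AAGATGGC, like the site of YY1. RefSeq promoters (GRCh38.p14) were at hand for 67 of the 83 nuclear members. GCATGCGC was in 19.4% of these and in 3.05% of all 35116 promoters, CCGGAAG in 29.9% and 10.3%, and AAGATGGC in 16.4% and 2.89%. At least 1 of the 3 was in 50.7% of members and 14.9% of all promoters. By call, AAGATGGC was in 5 of 11 members that rose, in 2 of 30 that fell and in 4 of 26 not called, GCATGCGC in 4 of 11, 8 of 30 and 1 of 26, and CCGGAAG in 3 of 11, 9 of 30 and 8 of 26. Of the 5 members with AAGATGGC that rose, NDUFA9, SDHB, UQCRC1 and ATP5PF lost their call with DESeq2, and NDUFS4 kept it. At least SDHB, UQCRC1 and ATP5PF also lost it when replicate 1 of CP+siNC was left out. These counts are a description without a test.

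Promoters of 4 members whose values are given above are shown from 250 bases before to 30 bases after the RefSeq start, 5′ to 3′ on the strand of the gene, with matches in capitals. They are ATP5MC2 (chr12:53676054-53676333, minus strand) and NDUFS4 (chr5:53560389-53560668, plus strand), which rose, and UQCR10 (chr22:29767119-29767398, plus strand) and COX6A1 (chr12:120437863-120438142, plus strand), which fell. ATP5MC2 holds 1 NRF1-like match, NDUFS4 1 YY1-like match that begins after its start, COX6A1 2 NRF1-like matches and 1 ETS-like match, and UQCR10 none.
ATP5MC2: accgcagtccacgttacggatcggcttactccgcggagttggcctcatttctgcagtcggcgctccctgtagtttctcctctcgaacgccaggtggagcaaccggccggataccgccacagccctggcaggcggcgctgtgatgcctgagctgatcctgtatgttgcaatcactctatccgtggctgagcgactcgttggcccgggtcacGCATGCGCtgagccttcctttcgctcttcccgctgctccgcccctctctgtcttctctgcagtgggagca
NDUFS4: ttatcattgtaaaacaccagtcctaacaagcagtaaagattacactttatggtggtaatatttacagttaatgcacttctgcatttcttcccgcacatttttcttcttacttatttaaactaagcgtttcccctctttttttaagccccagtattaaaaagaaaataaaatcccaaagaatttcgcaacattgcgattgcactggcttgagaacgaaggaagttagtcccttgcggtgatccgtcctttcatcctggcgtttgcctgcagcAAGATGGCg
UQCR10: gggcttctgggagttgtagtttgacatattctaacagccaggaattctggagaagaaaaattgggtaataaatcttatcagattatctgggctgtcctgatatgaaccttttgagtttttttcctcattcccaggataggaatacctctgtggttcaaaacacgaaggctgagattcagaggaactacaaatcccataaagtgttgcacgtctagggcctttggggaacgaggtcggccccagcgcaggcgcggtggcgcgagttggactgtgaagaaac
COX6A1: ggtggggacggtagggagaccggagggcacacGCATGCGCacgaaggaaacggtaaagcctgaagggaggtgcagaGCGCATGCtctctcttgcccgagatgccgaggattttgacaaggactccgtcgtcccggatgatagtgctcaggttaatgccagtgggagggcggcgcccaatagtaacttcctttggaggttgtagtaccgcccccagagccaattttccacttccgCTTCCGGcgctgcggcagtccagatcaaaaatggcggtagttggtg

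Genes that make, assemble or feed the chain were read as lists. Among 15 genes of mitochondrial DNA transcription and replication 5 were higher and 4 lower. These were 33.3% and 26.7%, beside 21.8% and 22.3% of all tested genes. The median was -0.00, and it was above 0 with library size only (0.04) and with the trend on length taken out (0.01). TFAM, the factor that packages mitochondrial DNA and starts its transcription, had 148, 142 and 145 CPM in CP+siNC and 74.9, 77.7 and 78.7 CPM in CP+siNAT10. The groups were far apart, a log2 fold change of -0.91 (SE 0.0363; edgeR quasi-likelihood adjusted p = 1.19e-17), which is a larger change than that of any mitochondrial mRNA. POLRMT, the mitochondrial RNA polymerase, and MGME1, a nuclease of mitochondrial DNA, were at -0.27 and -0.22. Among 22 genes of mitochondrial RNA processing and stability 7 were higher and 5 lower (4 and 4 with DESeq2): LRPPRC, which stabilises mitochondrial mRNAs, was at 0.19 and lost its call once the trend on gene length was taken out (0.04), PTCD3 was at 0.21, and the oligoribonuclease gene REXO2 at -0.40. Of 14 regulators of mitochondrial biogenesis 7 were higher and 2 lower. The counts were 4 and 1 with DESeq2, 5 and 1 with the length trend taken out, and 8 and 1 with library size only. YY1 was at 0.26, the coactivator PPRC1 at 0.25 and MYC at 0.20, and the 14 values ran from -0.74 to 0.73.

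Assembly factors stood near the background, with 14 higher and 14 lower of 61, and 1 passed both limits. That was NUBPL, which delivers iron-sulfur clusters to complex I and was chosen after its values were seen, at 1.07. NUBPL had 1.43, 0.607 and 0.883 CPM in CP+siNC and 2.23, 1.88 and 1.97 CPM in CP+siNAT10. At such levels its value rests on few reads. HIGD1A, which acts on complex IV, was at -0.68, TMEM126B, needed to build complex I, at -0.61, and TTC19, of complex III, at -0.42. Coenzyme Q synthesis had 5 higher and 2 lower of 12 (2 higher with DESeq2), with COQ4 at 0.42, COQ10B at -0.48 and COQ5 at -0.28. Other electron carriers had 3 higher and 3 lower of 11, where ETFB, of the electron transfer flavoprotein, and GPD2, which feeds electrons from glycerol phosphate, rose by 0.30 and 0.52 and SQOR, which oxidises sulfide, was at -0.47. In the pyruvate dehydrogenase complex and citric acid cycle 3 were higher and 8 lower of 18 (4 and 5 with library size only), with PDHB and DLAT, of pyruvate dehydrogenase, at -0.47 and -0.51 and SUCLG2 at 0.77. Protein import had 4 higher and 11 lower of 24 (2 and 7 with DESeq2, 6 and 8 with library size only, 6 and 9 with the length trend taken out), with TIMM17A at -0.38, TOMM20 at -0.27 and TOMM40L at -0.54.

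Ribosomal proteins give the scale. Of 78 mitochondrial ribosomal protein genes 7 were higher and 25 lower, with a median of -0.05 (12 higher and 17 lower with library size only, 12 and 21 with the length trend taken out), and MRPS7 and MRPL42 at -0.73 and MRPS25 at 0.31 had the smallest p. Of 81 cytosolic ribosomal protein genes 1 was higher and 70 lower (2 and 61 with library size only, 2 and 63 with the length trend taken out), with a median of -0.22 and RPS7 at -0.80, RPS27L at -0.79 and RPLP1 at -0.60. The nuclear chain genes, with a median of -0.12, lay between these lists. No difference between lists was tested.

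**Figure D5:**
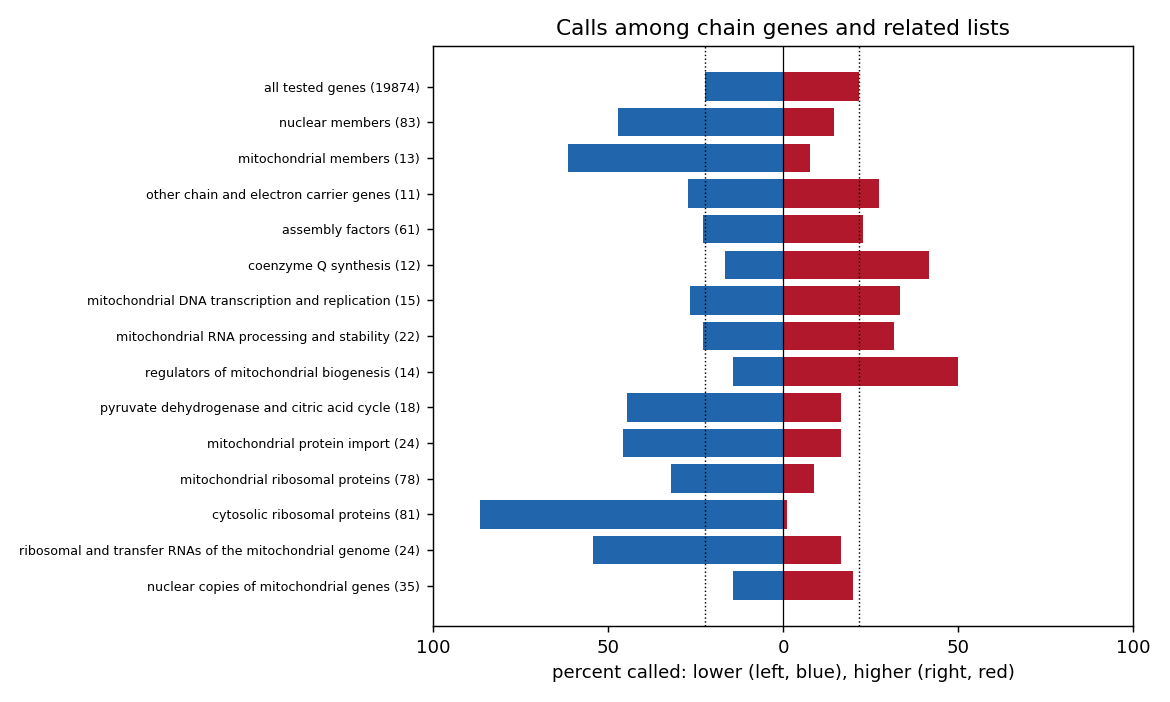
Percent of the tested genes of each list that were called lower (left) or higher (right) in CP+siNAT10, with the number tested in brackets and dotted lines at the 22.3% and 21.8% of all tested genes. The cytosolic ribosomal proteins reach furthest to the left, with 86.4% lower.

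Short genes moved down more than long ones across the whole table: the median log2 fold change of all tested genes was -0.02 in the shortest of 4 length classes, -0.03 in the next, 0.00 in the third and 0.08 in the longest. The nuclear members were short, with a median length of 2615 bases against 3928.5 for all tested genes, and their own medians in those classes were -0.18, -0.12, -0.03 and -0.06. With a trend on length taken out of each library, 9 nuclear members were higher and 33 lower. Overlap of genes is a further limit, since the span of 43 of the 83 nuclear members overlaps that of another tested row, 30 of them on the opposite strand.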

How the data were processed

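The mRNA of 6 HK-2 libraries was sequenced from a stranded kit with molecular identifiers. Per the labels and the study's methods, the authors trimmed reads (Trimmomatic 0.36), aligned them to GRCh38 (STAR 2.5.3a) and deposited raw counts per gene from featureCounts (Subread 1.5.1), with the gene lengths; versions are those of the submitters' processing notes. How overlapping features, strand and reads with several matches were handled was not given in the sources used here.

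From the deposited counts, all 62754 rows were read, 19874 passed filterByExpr (minimum count 10, total 15), and edgeR 4.0.16 in R 4.3.3 was fitted once with TMM scaling (glmQLFit, glmQLFTest, group as the only term) with Benjamini-Hochberg adjustment over all tested genes. The fit was tested on simulated counts. Calls used an adjusted p under 0.05, and both limits added a log2 fold change over 1 in size. RPKM used the deposited lengths. The name filter for pseudogenes (a P and digits at the end) was not applied to MT-ATP6 and MT-ATP8. NDUFA4 was counted in complex IV, and ATP5IF1 and COX7A2L with the complexes of their symbols. Named were NAT10, all mitochondrial members, per complex up to 3 of the largest called rises and falls and the member with the highest RPKM, members past both limits, isoform sets, and 3 genes of smallest p per list, and any other is said to be chosen after its values were seen. The members and lists were chosen with earlier results of these data known. With 3 libraries against 3, an exact permutation test cannot give a p below 0.10, so none was run. Alternatives were RLE, upper quartile, library size only and nuclear-row scaling, filters, DESeq2 1.42.0, a test against a 1.2-fold change, a gene length trend, the replicate block and leaving out each library. Protein sequences were not used here. Figures were drawn with matplotlib 3.10.9.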

Additional observations from a re-analysis of the deposited data

How the results depend on the processing

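Over 16 alternatives in processing, both medians kept their direction. The median log2 fold change ranged from -0.14 to -0.08 for nuclear and from -0.21 to -0.11 for mitochondrial members. Counts moved most when tested against a 1.2-fold change: 2910 of all genes were called, with 2 nuclear members higher and 5 lower and 0 mitochondrial members higher and 3 lower, as that test asks for a larger change. DESeq2 called 6 nuclear members higher. Leaving out 1 library gave 6 to 8 nuclear members higher. The single member past both limits, COX6A2, was not past them with no filter, with at least 1 CPM in all libraries (where it was not tested), with DESeq2, against a 1.2-fold change or without any 1 library, each giving 0. Of the 60 members called, 43 kept call and direction with DESeq2, 49 with the length trend and 10 against a 1.2-fold change.

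Nuclear members below 0 numbered 63, and 53 with library size only and 58 with the length trend. Among the genes named by rule, 14 values changed sign, all of 4 genes that no setting called. With library size only COX6B1 was at 0.0288, COX7A2L at 0.0168 and ATP5MC1 at 0.0285. With no filter COX6B1 was at 0.0025 and ATP5MC1 at 0.00202, and with the length trend they were at 0.0377 and 0.0392. Leaving out 1 library gave -0.0497 to 0.0505 for MT-CO2, -0.0475 to 0.0244 for COX6B1, -0.0672 to 0.0192 for COX7A2L and -0.0885 to 0.0666 for ATP5MC1. The cause was not tested.

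In libraries with the same replicate number, deviations from the group mean had r of 0.00808, 0.0639 and -0.205. These were taken across genes, which are not independent replicates. For different numbers r ran from -0.217 to 0.198. With 3 libraries a group, such values cannot show whether the numbers pair the samples. With the replicate block 8526 genes were called, with 11 nuclear members higher and 39 lower, 1 mitochondrial member higher and 9 lower, 1 member past both limits, and medians of -0.12 and -0.15. Depth limits members with few counts, such as COX6A2.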
